A study of Mus musculus with 6 samples.

Results

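The BCL2 family decides at the outer membrane of mitochondria whether a cell lives or enters apoptosis. The family members described here were chosen by gene symbol and are 10 of the 26264 genes in the deposited table. They comprise 3 survival genes (*Bcl2*, *Bcl2l1*, and *Mcl1*), 2 genes of pore-forming effectors (*Bax* and *Bak1*), and 5 genes of BH3-only death proteins (*Bcl2l11*, *Bid*, *Bad*, *Bbc3*, and *Pmaip1*). RNA-seq was performed on hematopoietic stem cells (HSCs) sorted from untreated, 8-week-old female mice, with 1 library per mouse. The 3 knockout mice carried the B6.129S2-Irf1tm1Mak/J allele (*Irf1-/-*) and the 3 controls were C57Bl/6 mice (WT). IRF1, an interferon-regulated transcription factor, was absent from the whole body of the knockout mice, so the stem cells and their surroundings differed together.

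In living cells, survival proteins such as BCL2, BCL-XL (encoded by *Bcl2l1*), and MCL1 hold the effectors BAX and BAK and the BH3-only proteins in check. BH3-only proteins respond to DNA damage, loss of growth factors, or death receptor signals, and when they outweigh the survival proteins, the effectors form pores that release cytochrome c and start the caspases. HSCs are known to need MCL1 for their survival. Many of these proteins are controlled by phosphorylation, cleavage, or rapid turnover, none of which is read by RNA-seq.

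The reads counted on genes, recovered from the deposited normalized counts, were 43138521, 57281017, and 45129929 in *Irf1-/-* replicates 2, 3, and 4 and 59658080, 45332573, and 43267486 in WT replicates 2, 3, and 4. These totals are above the reads per sample given in the study's methods, and the reason was not tested. Values below are normalized counts, that is, reads divided by a size factor for each library. For *Irf1*, which the allele targets, normalized counts were 9267, 9524, and 9287 in *Irf1-/-* replicates 2, 3, and 4 and 10122, 11119.6, and 12057 in the WT replicates. No *Irf1-/-* library reached the lowest WT value, but *Irf1-/-* libraries still averaged 84.3% of WT. The counts sum reads over the whole gene, and which part of it the allele lacks is not given in the sources used here, so they do not by themselves check the genotype labels.

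Some libraries stood apart from others of their genotype. The first principal component, which held 32.4% of the variance, placed *Irf1-/-* replicates 2 and 4 with WT replicate 4, and *Irf1-/-* replicate 3 with WT replicates 2 and 3. WT replicate 4 also had high values of some granulocyte genes. The 7 granulocyte markers summed to 5843 normalized counts there and to between 334 and 886 in the other 5 libraries, with *Ngp* the most abundant of them and *Ly6g* at 46.3 in WT replicate 4 and at most 1.07 elsewhere. *Camp*, *S100a8*, and *S100a9* were likewise highest in WT replicate 4, whereas *Mpo* (252.8 there, 355 in *Irf1-/-* replicate 4) and *Elane* (64.5 and 67.5) were not. The study's methods stain bone marrow cells for the granulocyte and myeloid markers Gr-1 and CD11b, and the source of these transcripts was not tested. For *Bcl2* and *Bid*, results without WT replicate 4 are therefore given as well.

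Markers of the sorted cells were read in each library. The 8 HSC markers, with *Kit* the most abundant, summed to between 192283 and 215869 normalized counts in *Irf1-/-* HSCs and between 181373 and 199137 in WT HSCs. The hemoglobin genes *Hba-a1*, *Hbb-bt*, and *Hbb-bs* were at 0 in all 6 libraries, and *Cd3e* was between 0 and 7.89. The T cell markers *Cd3g* and *Cd8a* were at most 12.4 and 2.59, but *Cd4* lay between 117 and 340. The NK cell markers *Nkg7* (2174 to 3209) and *Klrb1c* (394 to 837) were also present in every library. So were the monocyte and macrophage markers *Cd68* (561 to 843) and *C1qa* (229 to 301). Whether the counting could assign reads to these hemoglobin genes was not tested. Of the 8 HSC markers, 1 was called higher, *Fgd5* (log2 fold change 0.83, SE 0.0869, adjusted *P* = 9.13e-05, limma), and none was called lower. The shares of all genes tested were 0.96% and 0.954%. *Ly6a*, the gene of the gate marker Sca-1, had the lowest value of that list, with 4974, 6047, and 5376 normalized counts in *Irf1-/-* replicates 2, 3, and 4 and 6908, 7439, and 7692 in the WT replicates. The genotypes did not overlap (log2 fold change −0.43, adjusted *P* = 0.0245), and the size was under the threshold for a call, as it was for *Procr* in the other direction (0.52, adjusted *P* = 0.0112). *Slamf1*, the gene of the gate marker CD150, was higher without overlap (0.24, adjusted *P* = 0.217). Libraries lay entirely higher for 4 of the 8 HSC markers and entirely lower for 1 (10.6% and 9.27% of all genes). In limma, 5 with a higher and 1 with a lower value had an unadjusted *P* under 0.05 (8.38% and 8.07% of all genes). Of 3 genes listed as markers outside the gate, *Cd48* lay between 257 and 431 normalized counts, *Flt3* between 1730 and 4476, and *Cd34* between 15798 and 21456, so transcripts of all 3 were present in every library. The study's HSC gate excludes cells by CD48 but uses neither FLT3 nor CD34. Of these 3 genes, 1 was called, *Flt3*, which rose by 0.67 on the log2 scale (adjusted *P* = 0.0407), beside 0.96% of all genes called higher. Of the 4 megakaryocyte markers, 2 were called lower, *Pf4* at −1.11 and *Gp1ba* at −0.69, beside 0.954% of all genes. Of the 2 erythroid markers tested, 1 was called lower, the erythroid factor *Klf1* at −0.72. Of the marker lists of other cells, 4 of 5 B cell, 1 of 4 T cell, 3 of 4 NK cell, 6 of 7 granulocyte, and 5 of 5 monocyte genes were abundant enough to test. None of those was called by limma, beside 1.91% of all genes tested. Only 1 (an NK cell gene, lower) had an unadjusted *P* under 0.05, beside 16.5% of all genes in either direction. What these markers contribute to the values of the BCL2 family was not tested.

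The comparison of genotypes covered the 17404 genes whose normalized counts averaged 10 or more. Positive log2 fold changes denote higher values in *Irf1-/-* HSCs, and adding 1 to each value before the logarithm shrinks differences where counts are low. Calls required adjusted *P* < 0.05 together with a log2 fold change beyond 0.58 in either direction, which 333 genes met (1.91% of those tested), 167 higher (0.96%) and 166 lower (0.954%). None of the 10 BCL2 family genes was called by limma, and 3 of them (*Bcl2*, *Bid*, and *Pmaip1*, all lower) had an unadjusted *P* under 0.05, beside 16.5% of all genes tested (8.38% higher and 8.07% lower). For *Pmaip1*, which reached the minimum mean only through the WT libraries, the filter bears on the direction, and without it the count is 2 of 9. edgeR also called 0 of the 10. DESeq2, with and without a prior, called 0 of the 8 to which it gave an adjusted *P*, which leaves out *Bak1* and *Pmaip1*. Each of these 3 fits had 2 members at an unadjusted *P* under 0.05, beside 16.6% of all genes in edgeR and 12.3% and 12.7% in DESeq2 with and without a prior. Without the threshold on the fold change, *Bcl2* alone passed and was lower, as were 1.49% of all genes tested. The 3 libraries of one genotype lay entirely below the other 3 for *Bcl2*, *Bak1*, and *Bid*, which is 3 of 10 beside 9.27% of all genes tested, and lay entirely above for 0 of 10 beside 10.6%. The median log2 fold change of the 10 genes was −0.11 and that of all genes tested was −0.0028.

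*Bcl2* encodes the founding survival protein of the family, which binds BH3-only proteins and holds them away from the effectors. Its normalized counts were 5546, 5327, and 4784 in *Irf1-/-* replicates 2, 3, and 4 and 6806, 7595, and 6479 in WT replicates 2, 3, and 4. Every *Irf1-/-* library was below every WT library, and *Irf1-/-* replicate 4 was the lowest of all. Mean values were 5219 ± 392 and 6960.1 ± 573 (SD, n = 3 each), which puts *Irf1-/-* HSCs at 75.0% of WT. The log2 fold change was −0.41 (SE 0.0944, 95% confidence interval −0.62 to −0.21, adjusted *P* = 0.0291, limma). Its size was under the threshold of 0.58, and it ranked 374 by *P* among all genes tested. In bulk RNA, fewer cells that express a gene and less RNA of it in each cell cannot be told apart. Without WT replicate 4 the log2 fold change was −0.46 (adjusted *P* = 0.0173), but the adjusted *P* rose to between 0.0524 and 0.169 when any of the other 5 libraries was left out, and to 0.271 when limma was fitted without a trend in the prior variance. It was under 0.05 in 12 of 18 alternatives, among them edgeR (0.0289) and DESeq2 with and without a prior (0.00161 each).

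*Bcl2l1*, the gene of BCL-XL, had normalized counts of 3182, 3425, and 3250.3 in *Irf1-/-* replicates 2, 3, and 4 and 3657, 3769, and 3244 in the WT replicates. The genotypes overlapped only through WT replicate 4, which lay below 2 of the 3 *Irf1-/-* libraries. Its log2 fold change was −0.11 (SE 0.0941, 95% confidence interval −0.31 to 0.090, adjusted *P* = 0.641). *Mcl1* encodes a survival protein of very short half-life, whose supply depends closely on ongoing transcription. Its normalized counts were 13933, 12808, and 14488 in *Irf1-/-* HSCs and 13455, 12657, and 13492 in WT HSCs. The genotypes overlapped, since *Irf1-/-* replicate 3 lay below WT replicates 2 and 4. For *Mcl1* the log2 fold change was 0.057 (SE 0.0845, 95% confidence interval −0.12 to 0.24, adjusted *P* = 0.824). *Mcl1* also had a small spread between mice, with an SD of 3.57% of the mean in WT HSCs and 6.23% in *Irf1-/-* HSCs.

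The effectors BAX and BAK form the pores, and either can do so in most cells. *Bax* had normalized counts of 2943, 3406, and 3213 in *Irf1-/-* replicates 2, 3, and 4 and 3422, 3667, and 3234 in the WT replicates. The genotypes overlapped, with *Irf1-/-* replicate 3 above WT replicate 4. The log2 fold change of *Bax* was −0.11 (SE 0.0962, adjusted *P* = 0.653). *Bak1*, the gene of BAK, was near the bottom of what was tested, with 17, 36, and 29 reads in *Irf1-/-* libraries and 55, 32, and 43 in WT libraries. As normalized counts these were 18.1, 31.1, and 30.1 against 45.3, 36.1, and 46.3. No *Irf1-/-* library reached the lowest WT library, but the gap between 31.1 and 36.1 is a difference of few reads. The fold change on the log2 scale was −0.69 (SE 0.476, 95% confidence interval −1.72 to 0.33, adjusted *P* = 0.538).

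In the GENCODE vM1 annotation, 14.8% of the exonic bases of *Bak1* are shared with its neighbour *Ggnbp1*, and whether reads were assigned by strand is not stated. *Ggnbp1*, singled out for this overlap, had normalized counts of 129, 142, and 191 in *Irf1-/-* replicates 2, 3, and 4 and 96.3, 112, and 123 in the WT replicates. Its libraries did not overlap between genotypes in the direction opposite to those of *Bak1* (log2 fold change 0.47, SE 0.282, adjusted *P* = 0.469). How reads in the shared bases were divided between the genes was not tested. Exonic bases were also shared by *Bad* with *Gpr137* (25.8%), by *Bid* with *Bcl2l13* (17.7%), and by *Bcl2* with *D630008O14Rik* (7.76%). The other 6 members shared none.

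*Bid* encodes a BH3-only protein that caspase-8 cleaves after death receptor signals, which carries the signal to mitochondria. It had normalized counts of 2892, 3351, and 3262 in *Irf1-/-* replicates 2, 3, and 4 and 3780.5, 4193, and 3564 in WT replicates 2, 3, and 4. The genotypes did not overlap, and *Irf1-/-* replicate 2 was the lowest of its genotype. Means were 3168 ± 243 and 3846 ± 319.7 (SD, n = 3 each), or 82.4% of WT. The log2 fold change was −0.28 (SE 0.0993, 95% confidence interval −0.49 to −0.066), and the adjusted *P* of 0.161 did not pass. No alternative fit brought the adjusted *P* of *Bid* under 0.05, with a range of 0.0794 to 0.462. Without WT replicate 4 it was 0.0819.

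*Pmaip1* encodes NOXA, a p53-induced BH3-only protein that binds MCL1. It had 11, 1, and 0 reads in *Irf1-/-* replicates 2, 3, and 4 and 14, 14, and 26 reads in the WT replicates, or normalized counts of 11.7, 0.864, and 0 against 11.5, 15.8, and 28.0. *Irf1-/-* replicates 3 and 4 were at or near 0, whereas *Irf1-/-* replicate 2 was level with WT replicate 2, so the genotypes overlapped. With a mean of 11.3 over the 6 libraries, *Pmaip1* passed the minimum of 10 only through the WT libraries, since the *Irf1-/-* mean was 4.20. The log2 fold change was −2.67 with a pseudocount of 1 (SE 1.05, adjusted *P* = 0.209), and it depends on the pseudocount, with −3.13 at 0.5 and −1.51 at 5. Leaving out *Irf1-/-* replicate 2 gave −3.74 and leaving out *Irf1-/-* replicate 4 gave −1.91, whereas the gene was under the minimum when WT replicate 4 was left out, and DESeq2 with a prior gave −0.18. The other 9 members passed the minimum in both genotypes. Over the 8 members with a mean of at least 100, which leaves out *Pmaip1* and *Bak1*, the median log2 fold change was −0.093.

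*Bcl2l11* encodes BIM, which binds all the survival proteins and is induced by FOXO factors when growth factors are lost. Its normalized counts were 804, 710.3, and 718 in *Irf1-/-* replicates 2, 3, and 4 and 952, 712, and 708 in the WT replicates. Replicate 2 was the highest library in each genotype, and the other 4 libraries lay close together, so the genotypes overlapped. *Bcl2l11* had a log2 fold change of −0.076 (SE 0.151, 95% confidence interval −0.40 to 0.25, adjusted *P* = 0.878), which was 0.065 without WT replicate 2. *Bad* encodes a BH3-only protein that survival kinases phosphorylate and 14-3-3 proteins then hold in the cytosol. Its normalized counts were 1476, 1829, and 1735 against 1871, 1816, and 1608, in the same order of libraries. The ranges overlapped, with *Irf1-/-* replicate 2 the lowest of all 6. Its log2 fold change was −0.074 (SE 0.116, adjusted *P* = 0.833), and without *Irf1-/-* replicate 2 it was 0.016.

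*Bbc3* encodes PUMA, the main BH3-only protein induced by p53. Its normalized counts were 884, 1151, and 1142 in *Irf1-/-* replicates 2, 3, and 4 and 1037, 834, and 1222 in the WT replicates. The lowest and the highest value were both in WT HSCs, so the *Irf1-/-* range lay inside the WT range. *Bbc3* had a log2 fold change of 0.045 (SE 0.158, 95% confidence interval −0.29 to 0.38, adjusted *P* = 0.938), and its sign turned without WT replicate 3 (−0.099), *Irf1-/-* replicate 3 (−0.020), or *Irf1-/-* replicate 4 (−0.014). *Bbc3* and *Bcl2l11* had the widest spread between WT mice among the 8 more abundant members, with an SD of 18.8% and 17.7% of the mean.

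Levels were compared between genes as normalized counts per kilobase of exon, with lengths from GENCODE vM1, which is not the annotation of the counting. All 10 members and 84.2% of the genes tested had a length. In WT HSCs *Mcl1* had the highest level of the family, 3788 ± 135 per kilobase (SD, n = 3), above 94.4% of the tested genes with a length. *Bax* followed with 2570 ± 162, and the ranges of the 2 genes over WT mice did not overlap. *Bid* (1083 ± 90.1), *Bcl2* (968 ± 79.7), and *Bad* (879 ± 69.0) came next, and neighbours among these 3 overlapped between mice. *Bcl2l1* had 751 ± 58.4 and *Bbc3* 513 ± 96.7, and lower still was *Bcl2l11* with 98.5 ± 17.4. *Bak1* was at 17.7 ± 2.34 and *Pmaip1* at 6.96 ± 3.23, above 20.4% and 8.55% of the tested genes with a length. The order in *Irf1-/-* HSCs was the same except that *Bad* (837 ± 90.8) stood above *Bcl2* (726 ± 54.6). With the longest transcript of each gene in place of all exons, *Bcl2l1* and *Bad* stood above *Bcl2* in WT HSCs, so the order among these genes depends on the transcript assumed.

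Of the effectors, *Bax* therefore had a far higher counted level than *Bak1* in every library. The ratio of *Bax* to *Bak1* per kilobase was 136, 183, and 126 in WT replicates 2, 3, and 4 and 292, 197, and 192 in the *Irf1-/-* replicates. The *Irf1-/-* ratios were above the WT ratios, and they rest on the few reads of *Bak1*. Whether reads of *Bak1* were lost in the exonic bases that it shares with *Ggnbp1* was not tested. Among survival genes, the ratio of *Mcl1* to *Bcl2* per kilobase was 4.08, 3.44, and 4.30 in WT HSCs and 5.18, 4.96, and 6.25 in *Irf1-/-* HSCs, again without overlap. *Bcl2* by itself did not overlap between genotypes and *Mcl1* did, so this ratio is not a result separate from *Bcl2*. Neither ratio was among those planned, and how often ratios of other gene pairs lie apart was not determined.

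Survival and death transcripts were also set against each other within each library, as the log2 ratio of normalized counts with 1 added to each, without a test. These values compare a ratio between genotypes and do not compare levels of different genes. How often ratios of other gene pairs lie apart between the genotypes was not determined. For *Bcl2* over *Bax* the log2 ratio was 0.91, 0.65, and 0.57 in *Irf1-/-* replicates 2, 3, and 4 and 0.99, 1.05, and 1.00 in the WT replicates. All *Irf1-/-* libraries were lower, and the difference of the means was −0.30 (SE 0.105). *Bcl2* over *Bcl2l11* differed by −0.34 (SE 0.175), with *Irf1-/-* replicate 3 above WT replicate 2, and leaving out WT replicate 2 or 3 moved the difference to −0.49 or −0.21, respectively. The ratios of *Bcl2l1* to *Bax* (difference −0.00068, SE 0.0428) and of *Bcl2l1* to *Bad* (−0.038, SE 0.0718) overlapped between genotypes. So did the ratios of *Mcl1* to *Bcl2l11* (0.13, SE 0.146) and of *Mcl1* to *Bbc3* (0.011, SE 0.197). With 1 library left out, these 4 differences ran from −0.034 to 0.024, from −0.10 to −0.0039, from 0.0055 to 0.22, and from −0.12 to 0.13, in the order given. *Mcl1* over *Bak1* was higher in all *Irf1-/-* libraries (0.75, SE 0.273), as was *Mcl1* over *Pmaip1* (2.72, SE 1.16), and both rest on a death gene with few reads. The difference for *Mcl1* over *Bak1* was 0.50 without *Irf1-/-* replicate 2. That for *Mcl1* over *Pmaip1* was 3.18 with 0.5 added and 1.57 with 5 added, and leaving out *Irf1-/-* replicate 4 or 2 moved it to 1.92 or 3.79, respectively. *Mcl1* over *Pmaip1* was 10.10 in *Irf1-/-* replicate 2 and 10.07 in WT replicate 2, so the genotypes were barely apart.

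Cell cycle genes were examined in the same libraries. The 10 proliferation markers, with *Mcm2* the most abundant, summed to 78994, 82678, and 61228 normalized counts in *Irf1-/-* replicates 2, 3, and 4 and to 111161, 121693, and 86313 in the WT replicates. As for *Bcl2*, *Irf1-/-* replicate 4 was the lowest and WT replicate 3 the highest. Among *Irf1-/-* libraries, however, this sum was highest in replicate 3 and *Bcl2* in replicate 2. WT replicate 3 was also the highest library for *Bcl2l1*, *Bax*, and *Bid*, for which *Irf1-/-* replicate 2 was the lowest. All 10 had a fold change below 0, and 3 of them (*Top2a*, *Mki67*, and *Aurkb*) fell, beside 0.954% of all genes tested, from −0.77 for *Top2a* (adjusted *P* = 0.0177) to −0.63 for *Aurkb* (adjusted *P* = 0.0368). Libraries lay entirely lower in *Irf1-/-* HSCs for 7 of the 10 (9.27% of all genes) and overlapped for 3. The value nearest to 0 was that of *Pcna* (−0.35, adjusted *P* = 0.0752). The part of cell cycle state in the values of *Bcl2* was not tested.

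The wider apoptosis pathway was described with 8 further lists, which hold 76 genes, 72 of them tested. Of these, 1 gene rose and 1 fell, beside 0.96% and 0.954% of all genes tested, and the median log2 fold change was −0.062. Unadjusted *P* was under 0.05 for 6 of the 72 genes with a higher and 14 with a lower value, beside 8.38% and 8.07% of all genes. Libraries did not overlap between genotypes for 7 higher and 13 lower genes, beside 10.6% and 9.27%.

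The gene that rose was *Pim2*, which encodes a kinase that phosphorylates BAD and so disarms it. *Pim2* had normalized counts of 12299, 15254, and 14531 in *Irf1-/-* replicates 2, 3, and 4 and 7413, 4446, and 5907 in the WT replicates. The lowest *Irf1-/-* library stood far above the highest WT library, which was replicate 2. Expression in *Irf1-/-* HSCs averaged 237% of that in WT HSCs (log2 fold change 1.27, SE 0.148, adjusted *P* = 2.64e-04). *Pim2* was called in 17 of 18 alternative fits and was not called without the trend in the prior variance (adjusted *P* = 0.142). The other 14 genes of its list, which are kinases upstream of BAD and the 14-3-3 proteins that bind it, were not called by limma, edgeR, or DESeq2. Of these 14, 3 had an unadjusted *P* under 0.05 in limma, all lower (8.07% of all genes), and libraries lay entirely lower for 2 (9.27% of all genes). Its relatives *Pim1* and *Pim3* are singled out for the kinship. *Pim1* had 1894, 1769, and 2672 normalized counts in *Irf1-/-* HSCs and 1307, 1631, and 2312 in WT HSCs, with overlap (log2 fold change 0.29, adjusted *P* = 0.517). Replicate 4 was the highest library of each genotype for *Pim1*, and how far this difference depends on single libraries was not examined. *Pim3* had 2961, 3896, and 3322 against 3757, 3824, and 3447, also with overlap (−0.12, adjusted *P* = 0.656).

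The gene that fell was *Naip6*, of a family named for the inhibition of apoptosis but better known for sensing bacterial flagellin. Its normalized counts were 35.2, 44.1, and 45.7 in *Irf1-/-* replicates 2, 3, and 4 and 118, 105, and 169 in the WT replicates. All *Irf1-/-* libraries were under the lowest WT library (log2 fold change −1.60, SE 0.354, adjusted *P* = 0.0254). *Naip6* was not called without the trend or without any library except *Irf1-/-* replicate 3 (highest adjusted *P* = 0.0876). Its paralogs are closely alike, so reads could have been divided among them, and the value is uncertain. Of the other inhibitors of apoptosis, *Birc5*, which encodes survivin and is a cell cycle gene as well, had a log2 fold change of −0.58 and an adjusted *P* of 0.0575. *Birc5* was called in 6 of 18 alternatives, among them the fits without *Irf1-/-* replicate 3 and without WT replicate 4. Over the 18, its log2 fold change ran from −0.71 to −0.37 and its adjusted *P* from 0.00668 to 0.375. *Birc7* had the highest value of the list (0.90, adjusted *P* = 0.423). Libraries lay entirely lower in *Irf1-/-* HSCs for 5 of the 10 genes of the list (9.27% of all genes) and entirely higher for 1, *Birc3* (10.6% of all genes), and the median log2 fold change was −0.25.

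Downstream of the pores, none of the 8 genes of the apoptosome and executioner caspases was called by limma, 4 had an unadjusted *P* under 0.05 (16.5% of all genes), and edgeR and DESeq2 called none of them. *Cycs*, the gene of cytochrome c, had the lowest value of the list. It had normalized counts of 2095, 2753, and 2359 in *Irf1-/-* replicates 2, 3, and 4 and 3389.6, 3347, and 2939 in the WT replicates. The genotypes did not overlap (log2 fold change −0.43, SE 0.113, adjusted *P* = 0.0568). The initiator caspase gene *Casp9* had the highest value, with 2693, 2922, and 2607 against 2582, 2186, and 1979 normalized counts. Here too the genotypes were apart, in the other direction (0.29, SE 0.112, adjusted *P* = 0.195). The median of the list was −0.072.

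The 6 mitochondrial partners, which are channel, fusion, fission, and BID receptor genes, all had fold changes below 0, between −0.26 for *Mtch2* (adjusted *P* = 0.226) and −0.10 for *Dnm1l* (adjusted *P* = 0.690). None was called by limma, edgeR, or DESeq2, and 4 had an unadjusted *P* under 0.05 in limma, all lower (8.07% of all genes). *Mtch2*, which encodes the mitochondrial receptor of cleaved BID, had normalized counts of 5117, 5871, and 4753 in *Irf1-/-* replicates 2, 3, and 4 and 6513, 6867, and 5519.9 in the WT replicates, where WT replicate 4 lay below *Irf1-/-* replicate 3. The 5 enzymes of MCL1 turnover gave 0 calls in limma, edgeR, and DESeq2 (1.91% of all genes in limma) and 0 unadjusted *P* under 0.05 in limma (16.5% of all genes). Of the 5, 4 had fold changes below 0, and libraries lay entirely lower for 2 (9.27% of all genes). Their fold changes ran from −0.20 for the ubiquitin ligase subunit *Fbxw7* to 0.051 for the deubiquitinase *Usp9x*.

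Of the 8 genes of transcription factors that act on BH3-only genes and their regulators, none was called by limma, and 2 with a higher and 1 with a lower value had an unadjusted *P* under 0.05 (8.38% and 8.07% of all genes). edgeR and DESeq2 also called none. *E2f1* had the lowest value (−0.42, adjusted *P* = 0.153), and it was called without WT replicate 4 (adjusted *P* = 0.0214, range over the alternatives 0.0214 to 0.491). Its log2 fold change ran from −0.59 to −0.24 over the alternatives. *Trp73* had the highest fitted value (0.73, adjusted *P* = 0.796), although *Irf1-/-* libraries averaged 97.9% of WT, because WT replicate 3 held a normalized count of 1.13. *Foxo1* and *Foxo3*, outside the naming rule and singled out because FOXO factors act on *Bcl2l11*, had values above all WT libraries in all *Irf1-/-* libraries (0.31 and 0.42, adjusted *P* = 0.104 and 0.195). They were the 2 of the 8 genes whose libraries lay entirely higher (10.6% of all genes), and 0 lay entirely lower (9.27% of all genes). The 8 genes of the death receptor arm upstream of BID gave 0 calls by limma, edgeR, or DESeq2 and 1 unadjusted *P* under 0.05 in limma (16.5% of all genes), that of *Tnfrsf1a* (0.27, adjusted *P* = 0.130), and the lowest value was that of *Fadd* (−0.11, adjusted *P* = 0.814).

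The other BCL2 family genes numbered 16, of which 12 were tested, and none was called by limma, edgeR, or DESeq2, with 1, of higher value, at an unadjusted *P* under 0.05 in limma (8.38% of all genes). *Bcl2a1a*, *Bcl2a1c*, *Bcl2l10*, and *Hrk* were not tested because their mean was under 10. The *Bcl2a1* paralogs are nearly identical and may share reads. *Bmf*, which encodes a BH3-only protein, had the highest fold change (0.91, SE 0.515, adjusted *P* = 0.432), with 41.6, 64.8, and 63.3 normalized counts in *Irf1-/-* replicates 2, 3, and 4 and 60.1, 18.03, and 22.6 in the WT replicates. WT replicate 2 lay inside the *Irf1-/-* range. Over the alternatives in which *Bmf* was tested, its log2 fold change ran from 0.23 to 1.41. *Bik* had the lowest (−0.46, adjusted *P* = 0.801), at 10.4 to 21.5 normalized counts over the 6 libraries.

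**Figure D1:**
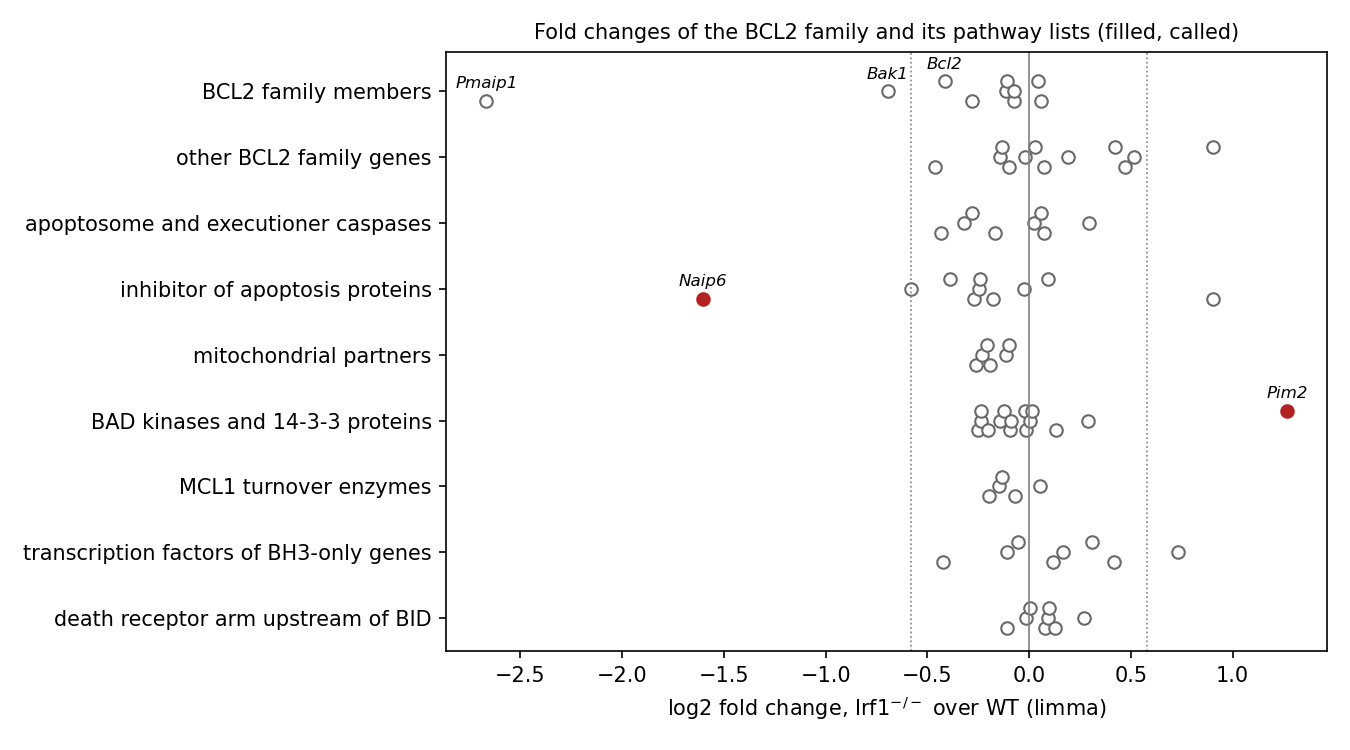
Log2 fold change of each tested gene, *Irf1-/-* over WT, in the BCL2 family and in 8 pathway lists, with called genes filled, vertical offsets for legibility, and dotted lines at a log2 fold change of −0.58 and 0.58. *Pim2* (1.27) and *Naip6* (−1.60) are the called genes, and genes outside the dotted lines without a call include *Pmaip1* (−2.67), *Bak1* (−0.69), *Birc5* (−0.58), *Bmf* (0.91), *Birc7* (0.90), and *Trp73* (0.73).

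The starts of the members were read in the RefSeq promoter table of GRCm38.p6, which covers 250 bases before and 50 bases after each start. It held 15 windows for 9 of the 10 members. The bases G and C made up between 49.3% and 78.0% of a window (median 65.7%, against 52.7% over 32851 windows), and the median number of CG pairs was 27, against 7. A motif of interferon regulatory factors, GAAA repeated after a gap of 2 bases, was searched on both strands, and 0 of the 15 windows held it, beside 3.44% of all windows. A STAT motif, TTC and GAA with 3 bases between them, which reads the same on both strands, was in 0 of 15 beside 8.30%. The absence of these letters says nothing on more distant sites. The windows of *Bcl2* (chr1:106714241-106714540, minus strand), the member with the lowest adjusted *P*, and of *Mcl1* (chr3:95658471-95658770, plus strand), the most abundant member, are shown 5′ to 3′ with the first 50 transcribed bases in capitals. The *Bcl2* window had 76.0% G and C and 44 CG pairs, the most of the 15 windows, and that of *Mcl1* had 65.7% and 33.
Bcl2: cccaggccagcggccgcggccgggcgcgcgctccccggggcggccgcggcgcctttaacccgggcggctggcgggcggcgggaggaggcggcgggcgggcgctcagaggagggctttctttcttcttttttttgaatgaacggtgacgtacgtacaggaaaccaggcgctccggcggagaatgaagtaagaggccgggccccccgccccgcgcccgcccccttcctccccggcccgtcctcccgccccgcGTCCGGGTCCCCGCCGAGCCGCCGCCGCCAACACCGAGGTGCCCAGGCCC
Mcl1: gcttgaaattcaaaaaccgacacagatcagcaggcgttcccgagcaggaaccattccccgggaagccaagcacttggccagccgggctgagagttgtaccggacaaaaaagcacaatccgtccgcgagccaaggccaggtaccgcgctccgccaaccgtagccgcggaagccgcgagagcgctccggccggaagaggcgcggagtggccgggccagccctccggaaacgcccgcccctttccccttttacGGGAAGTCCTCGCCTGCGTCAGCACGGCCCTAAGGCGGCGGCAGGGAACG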

How the data were processed

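Bulk RNA-seq libraries of HSCs from 3 *Irf1-/-* and 3 WT mice were compared. The authors trimmed the reads (Trim Galore), aligned them with HISAT2 (build mm39 in the submitters' processing notes), and used HTSeq-count to count genes. The signal that the authors deposited is the count after scaling with DESeq2 by a size factor for each library. Neither strand nor annotation is stated. Whole reads were recovered for 100% of the values, within 0.1 of a read, from the value that 1 read takes in each library. Replicates are separate mice by the study's methods.

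limma 3.58.1 in R 4.3.3 (lmFit, eBayes with trend) was applied to log2(normalized count + 1) over all genes with a mean of at least 10, with Benjamini-Hochberg adjustment. edgeR 4.0.16 and DESeq2 1.42.0 were run on the recovered reads as alternatives. The fits were tested on simulated data. Members and lists were chosen with earlier results of these data known. The genes named are the 10 members, *Irf1*, every called gene of the pathway lists, and for most of these lists the highest and lowest fold change. The most abundant marker of some cell types and further markers of the sorted and of other cells were added outside this rule. *Birc5* and *Birc3* were also added, as were genes said to be singled out or named for shared bases. These additions were chosen after their values were seen. Figures were drawn with matplotlib 3.10.9.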

Additional observations from a re-analysis of the deposited data

How the results depend on the processing

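The count of 0 called BCL2 family genes was the same under the alternatives except that *Bcl2* (1 gene) passed without the fold threshold, where 301 genes were called higher and 260 lower. *Bak1* and *Pmaip1* could not be called by either DESeq2 fit or at a minimum mean of 50, nor *Pmaip1* without WT replicate 4. Without the trend in limma, 7 genes were called higher, 33 lower, and 0 in the pathway lists, and the log2 fold change of *Bcl2*, −0.41, no longer passed. DESeq2 called 295 genes higher and 209 lower without a prior and 169 and 134 with one, beside 167 and 166 in limma. After quantile normalization 5 members were lower without overlap (*Bcl2*, *Bcl2l1*, *Bax*, *Bid*, and *Pmaip1*), beside 11.4% of all genes. With each library left out in turn, between 83 (without *Irf1-/-* replicate 4) and 304 (without WT replicate 4) genes were called higher, between 105 (without WT replicate 3) and 265 (without WT replicate 4) lower, and between 1 and 3 in the pathway lists. Between 3 and 5 members were then lower without overlap, with 5 reached without WT replicate 4 (19.9% of all genes there), and between 0 and 1 higher (*Mcl1* without *Irf1-/-* replicate 3, 16.7% of all genes there). Over the 6 fits the share of all genes was between 12.0% and 19.9% lower and between 13.9% and 18.2% higher. The fold change of *Bcl2* ran from −0.46 to −0.35, that of *Bad* from −0.14 to 0.016, that of *Bbc3* from −0.099 to 0.18, and that of *Bcl2l11* from −0.15 to 0.065. Other members ranged from −0.83 to −0.45 (*Bak1*, nearest 0 without *Irf1-/-* replicate 2), from −0.16 to −0.055 (*Bax*, also without *Irf1-/-* replicate 2), from −0.18 to −0.068 (*Bcl2l1*, ends reached when WT replicates 4 and 3 were left out), and from 0.018 to 0.11 (*Mcl1*, ends reached when *Irf1-/-* replicates 4 and 3 were left out). The cause of these shifts was not tested. The median of the members stayed between −0.15 and −0.089. The labels give both genotypes the replicate numbers 2, 3, and 4, but deviations of libraries with the same number correlated at −0.094, 0.25, and 0.15 over genes, and *Irf1-/-* replicate 2 correlated best with WT replicate 4, so the numbers were not taken as pairs. With the replicate number as a block, 219 genes were called higher and 196 lower, 0 members were called, and the adjusted *P* of *Bcl2* was 0.0102. A term for the side of the first principal component, chosen after seeing the data, gave 169 and 156 calls and an adjusted *P* of 0.0350 for *Bcl2*. *Bak1* and *Pmaip1* had few reads, and each genotype had 3 mice.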
